A study of Homo sapiens with 60 samples.

Results

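Topotecan was compared with its vehicle in 1 clone, F7, of HEK293A cells whose TDP1 gene had been targeted for knockout. The comparison used the 8 of the series' 60 RNA-seq libraries whose titles name clone KO_Tdp1_F7 with topotecan (4 libraries) or with DMSO (4 libraries). HEK293A is a line of human embryonic kidney cells that carries adenoviral early genes, whose products bind the p53 and RB proteins. The topotecan libraries came from F7 cells kept for 5 to 5.5 h with 100 nM topotecan in 0.1% DMSO, and the DMSO libraries from F7 cells kept equally long with 0.1% DMSO. Untreated F7 libraries (4) and the topotecan and DMSO libraries of the sister clones C6 and G6 (16 in all, same line, genotype, doses and time) served only as background. The series also holds cells given the compound OL9-119, alone or with topotecan. The guides were aimed at exons shared by the TDP1 transcripts. All cells carried the targeted gene, F7 is 1 clone, and the wild-type cells of the study were not analysed here, so an effect of the knockout itself was not measured. The labels call the 4 libraries of a group biological replicates and do not say whether they came from separate cultures, so p-values measure the spread between these libraries.

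Topoisomerase 1 relaxes the supercoils that form ahead of RNA polymerase and replication forks by cutting 1 DNA strand and staying bound to the cut end. Topotecan, a camptothecin derivative, holds the enzyme on the cut DNA, and TDP1 (tyrosyl-DNA phosphodiesterase 1) removes the trapped enzyme's remnant. Long transcription units are known to depend on topoisomerase 1 for elongation, and DNA breaks are known to activate the transcription factor NF-kB, which drives chemokine genes together with its own inhibitors NFKBIA and TNFAIP3.

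Library totals were 6.83 to 15.4 M counts with topotecan and 9.65 to 17.9 M counts with DMSO. At a common depth of 4.5 M counts, 21716 to 22523 genes were detected in topotecan libraries and 22175 to 22982 in DMSO libraries. The mitochondrial share was 4.58 to 5.67% of counts with topotecan and 4.76 to 5.76% with DMSO. Replicate pairs of a group differed by 3.23 to 6.5 times the variance that counting error gives, so none of these 12 within-group pairs was 1 library deposited again. Whether libraries share a culture or RNA is not known. Of 19 genes that mark HEK293 identity 16 were expressed, and the summed level of the 19 was 2010 to 2210 CPM with topotecan and 1980 to 2150 CPM with DMSO (CPM, counts per 1e6 counts). Summed levels here and below use each library's total and every listed gene in the count table, tested or not. Levels of single genes are in CPM scaled between libraries with TMM. The summed level of 10 blood cell markers was at most 6.72 CPM with topotecan and 7.26 CPM with DMSO, and that of 8 hepatocyte markers at most 3.05 CPM with topotecan and 2.74 CPM with DMSO. Fibroblast markers summed to 45.4 to 46.9 CPM with topotecan and 39.1 to 50.3 CPM with DMSO, endothelial markers to 11.9 to 13.3 CPM with topotecan and 10.4 to 11.9 CPM with DMSO, and none of the tested markers of these 4 cell types passed the test.

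TDP1 (ENSG00000042088, chromosome 14, 89954939 to 90044768, hg38) was still counted in every library. It stood at 19.9, 22.4, 18.3 and 21.4 CPM with topotecan, against 28.6, 24.6, 27.6 and 30.02 CPM with DMSO. The groups did not overlap, and the log2 change was -0.41 ± 0.10 (SE; adjusted p = 0.00256, edgeR quasi-likelihood test with Benjamini-Hochberg adjustment, as for all adjusted p below). A count over the whole gene does not show whether the edited exon is intact, so it does not check the knockout. TOP1 (chromosome 20, 41028818 to 41124487), the gene of the enzyme that topotecan traps, stood at 390.5, 389.7, 400.2 and 360.1 CPM with topotecan, against 440.3, 407, 451 and 474 CPM with DMSO. Its log2 change was -0.20 ± 0.05 (adjusted p = 0.00748, edgeR). The TOP1 call was lost without DMSO replicate 4 or topotecan replicate 4 (adjusted p up to 0.0517, edgeR).

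Topotecan lowered more genes than it raised in clone F7, by small steps. Of 16834 genes tested, 1698 passed an adjusted p of 0.05 (10.1%, edgeR), 537 of them higher with topotecan (3.19%) and 1161 lower (6.9%). The median log2 change was 0.29 over the genes that rose and -0.37 over those that fell, so a typical called gene stood at 1.22 times or 0.774 times its DMSO level. A change of at least 2-fold was found for 9 genes that rose and 36 that fell. All 9 that rose by 2-fold, among them the chemokine gene CXCL2, were rare transcripts with a mean log2 CPM under 2. Of the 36 that fell by 2-fold, 24 also had a mean log2 CPM under 2. Of the same 36, 25 were protein-coding, and 20 of these 25 span at least 200 kb of the genome. Without DMSO replicate 3 the count of genes that rose was 298, and without any 1 of the other 7 it was 363 to 548. In a fit that shared its estimate of spread with all 60 libraries, 44 genes rose and 322 fell.

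**Figure D1:**
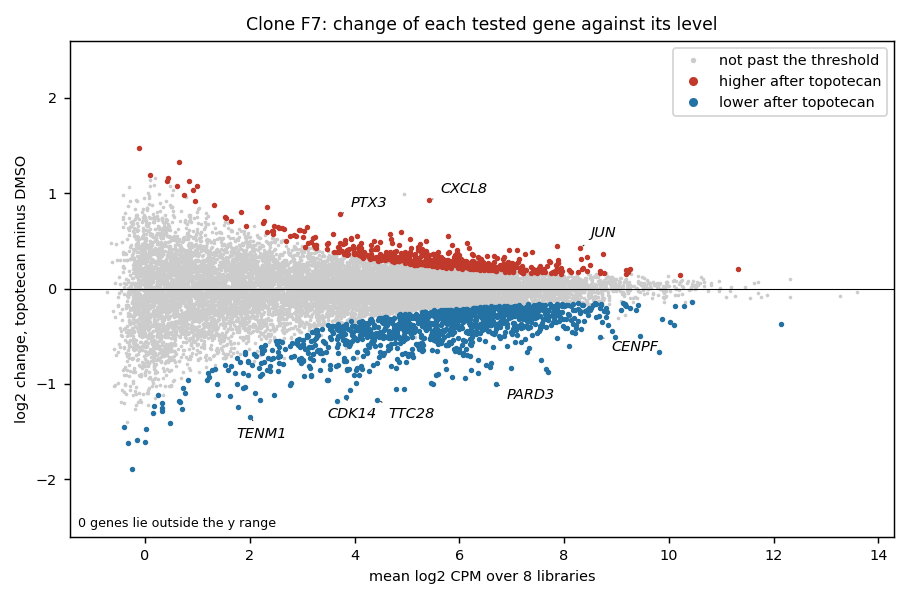
Each point is 1 of the 16834 genes tested in clone F7. The x axis is the mean log2 CPM over the 8 libraries and the y axis the log2 change, topotecan minus DMSO. Red points (537) passed the threshold and were higher with topotecan, blue points (1161) passed and were lower, and grey points did not pass. Of the called genes, 9 lie at or above a log2 change of 1 and 36 at or below -1.

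The vehicle gave far fewer calls. Untreated F7 replicates 1 to 4 held 18.7, 19.8, 6.81 and 5.22 M counts, and the power of this comparison was not measured. Between DMSO and untreated F7 libraries 1 of 17109 genes passed (0.00584%, edgeR), and 587 had an unadjusted p under 0.05, against 3589 for topotecan. The 1 gene was ANKRD1, a cardiac ankyrin repeat gene also known as a target of YAP, with a log2 change of -0.49 ± 0.07 (adjusted p = 0.0147, edgeR). That call was lost without DMSO replicate 2, 3 or 4 or untreated replicate 3, when 0 genes passed. Both comparisons share the DMSO libraries, and with topotecan ANKRD1 had a log2 change of 0.16 (adjusted p = 0.0493, edgeR).

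Among called genes with a symbol and a mean log2 CPM of 2 or more, CXCL8 had the highest change. CXCL8 (ENSG00000169429, chromosome 4, 73740506 to 73743716) encodes the neutrophil-attracting chemokine interleukin-8. Its level was 57.0, 56.1, 56.8 and 66.1 CPM with topotecan, against 31.0, 26.4, 32.6 and 35.4 CPM with DMSO. Every topotecan library lay above every DMSO library, and the log2 change was 0.93 ± 0.08 (1.9-fold, adjusted p = 1.19e-11, edgeR). PTX3, which encodes the soluble pattern recognition protein pentraxin 3, was at 16.8, 15.8, 19.5 and 16.2 CPM with topotecan, against 9.32, 8.92, 10.5 and 11.1 CPM with DMSO (log2 0.78 ± 0.12, adjusted p = 7.43e-06, edgeR). Its groups did not overlap either. The dendritic cell marker gene CD83 (log2 0.50), the stress response gene IER3 (0.40) and TNFRSF9, which encodes the receptor 4-1BB (0.46), also rose.

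Of 28 tested effector genes of NF-kB, 8 rose and 0 fell, against 3.19% of all genes that rose. The median log2 change of the 28 was 0.22, against 0.01 over all genes tested. Their median span was 9.51 kb, and of protein-coding genes under 10 kb 6.73% rose and 0.87% fell, with a median of 0.06. The summed level of the 35 listed effectors in the count table was 1430 to 1500 CPM with topotecan and 1290 to 1380 CPM with DMSO. Besides those named, CXCL2, CCL20 and IRF1 rose. CXCL2 had a log2 change of 1.08 ± 0.30, at 2.11 to 3.16 CPM with topotecan and 1.09 to 1.58 CPM with DMSO. The chemokine gene CCL20 had a log2 change of 0.59 ± 0.20 (adjusted p = 0.0466, edgeR), and its groups overlapped. The interferon regulatory factor gene IRF1 had a log2 change of 0.30. CXCL2, CCL20 and IRF1 were named after their values were seen, to account for all 8. The inflammatory effector genes TNF, ICAM1 and BIRC3 did not pass: TNF had a log2 change of 0.65 ± 0.22 (adjusted p = 0.052, edgeR), ICAM1 0.23, and the inhibitor of apoptosis gene BIRC3 0.05. Without topotecan replicate 4 the count of effectors that rose was 5, and IRF1 was among those lost (adjusted p = 0.0633, edgeR).

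The inhibitor genes TNFAIP3 and NFKBIA rose too, by less than CXCL8. NFKBIB (log2 0.03), NFKBIE (0.12), TNIP2 (0.24) and CYLD (-0.02), also inhibitor genes, did not pass. TNFAIP3 (chromosome 6, 137867188 to 137883312), whose product A20 removes ubiquitin chains that activate the IKK complex, was at 81.4, 79.6, 88.1 and 86.6 CPM with topotecan, against 66.9, 61.1, 53.4 and 57.8 CPM with DMSO. NFKBIA (chromosome 14, 35401511 to 35404749), which encodes the inhibitor that holds NF-kB in the cytoplasm, was at 80.6, 78.2, 91.5 and 86.0 CPM with topotecan, against 57.5, 62.5, 64.7 and 65.2 CPM with DMSO. Neither gene's groups overlapped. The log2 changes were 0.48 ± 0.07 for TNFAIP3 (adjusted p = 1.71e-06) and 0.43 ± 0.07 for NFKBIA (adjusted p = 1.03e-05, both edgeR). Of 25 subunit, kinase and inhibitor genes 5 rose and 1 fell, against 3.19% and 6.9% of all genes, with a median log2 change of 0.05. The subunit genes RELB (log2 0.32), RELA (0.20) and NFKB2 (0.20) were the others that rose. TRAF3, which restrains the non-canonical arm and spans 134 kb, was the 1 that fell (log2 -0.22), a call lost without DMSO replicate 1, and NFKB1 (-0.11) and REL (0.12) did not pass. The subunit calls were fragile: RELB was lost without DMSO replicate 4 (adjusted p = 0.0884), RELA without DMSO replicate 1 or topotecan replicate 4 (up to 0.0822), and NFKB2 without DMSO replicate 3 or 4 or topotecan replicate 2, 3 or 4 (up to 0.0823, all edgeR). Only 3 of these genes rose when either DMSO replicate 4 or topotecan replicate 4 was left out.

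The stretches before the starts of 3 of these genes are shown because they hold the letters that NF-kB is known to bind. The stretches searched for TNFAIP3 (179 bases), CD83 (250), CXCL2 (152) and NFKB2 (250) hold neither motif and are not printed. All stretches are parts of RefSeq promoter windows on GRCh38.p14, read 5′ to 3′ on the gene's strand and ended before the gene's first base in GENCODE 29. For TNFAIP3 and CXCL2 this end cut off the bases nearest the RefSeq start, so a motif there would not be seen. The shares below come from uncut windows. Capitals mark the NF-kB motif GGNNNTTCC and the AP-1 motif TGANTCA, each searched on both strands. The windows are chr4:73740319-73740505 (plus strand) for CXCL8, chr3:157436600-157436788 (plus strand) for PTX3 and chr14:35404750-35404999 (minus strand) for NFKBIA.
CXCL8: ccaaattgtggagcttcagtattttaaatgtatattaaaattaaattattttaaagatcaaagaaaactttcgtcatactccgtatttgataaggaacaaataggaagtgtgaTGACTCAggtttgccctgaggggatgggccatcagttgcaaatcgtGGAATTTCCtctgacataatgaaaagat
PTX3: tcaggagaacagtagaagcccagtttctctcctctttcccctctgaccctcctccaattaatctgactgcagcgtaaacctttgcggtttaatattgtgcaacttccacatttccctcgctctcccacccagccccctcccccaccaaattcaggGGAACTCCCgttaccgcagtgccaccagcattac
NFKBIA: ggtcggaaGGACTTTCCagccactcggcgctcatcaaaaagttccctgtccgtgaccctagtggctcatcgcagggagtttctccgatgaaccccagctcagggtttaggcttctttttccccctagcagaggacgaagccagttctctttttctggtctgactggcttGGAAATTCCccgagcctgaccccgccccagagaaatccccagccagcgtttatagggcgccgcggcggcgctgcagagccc
In windows of 300 bases around the RefSeq starts, GGNNNTTCC stood in 12 of 22 effector genes with a window (54.5%) and in 9 of 22 subunit and inhibitor genes (40.9%), against 23.0% of the 12034 tested genes with a window. TGANTCA stood in 3 of the 22 effector windows (13.6%), against 4.79% of all. These are matches of letters, not measured binding.

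Immediate early genes, which answer growth and stress signals without new protein synthesis, rose as well. Of 34 tested, 13 rose and 0 fell, against 3.19% of all genes that rose and 6.9% that fell, and the median log2 change was 0.16. Their median span was 5.64 kb, and of protein-coding genes under 10 kb 6.73% rose and 0.87% fell, with a median of 0.06. The summed level of the 35 listed genes was 3330 to 3530 CPM with topotecan and 2810 to 3100 CPM with DMSO. JUN (chromosome 1, 58780788 to 58784327), a subunit of AP-1, was at 339, 374, 395 and 360.5 CPM with topotecan, against 279.9, 278, 289 and 242 CPM with DMSO (log2 0.43 ± 0.06, adjusted p = 1.54e-07, edgeR). MYC was at 33.2, 30.8, 27.3 and 32.4 CPM with topotecan, against 20.5, 23.4, 23.8 and 21.9 CPM with DMSO (log2 0.48 ± 0.09, adjusted p = 0.000234, edgeR). In both genes every topotecan library lay above every DMSO library. ATF3 (log2 0.28), the AP-1 subunit gene FOSL1 (0.37) and PPP1R15A, which encodes the GADD34 phosphatase subunit (0.24), also rose. FOS (0.20) and NR4A1 (0.07) did not pass. Without DMSO replicate 4, 9 of the 34 rose.

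**Figure D2:**
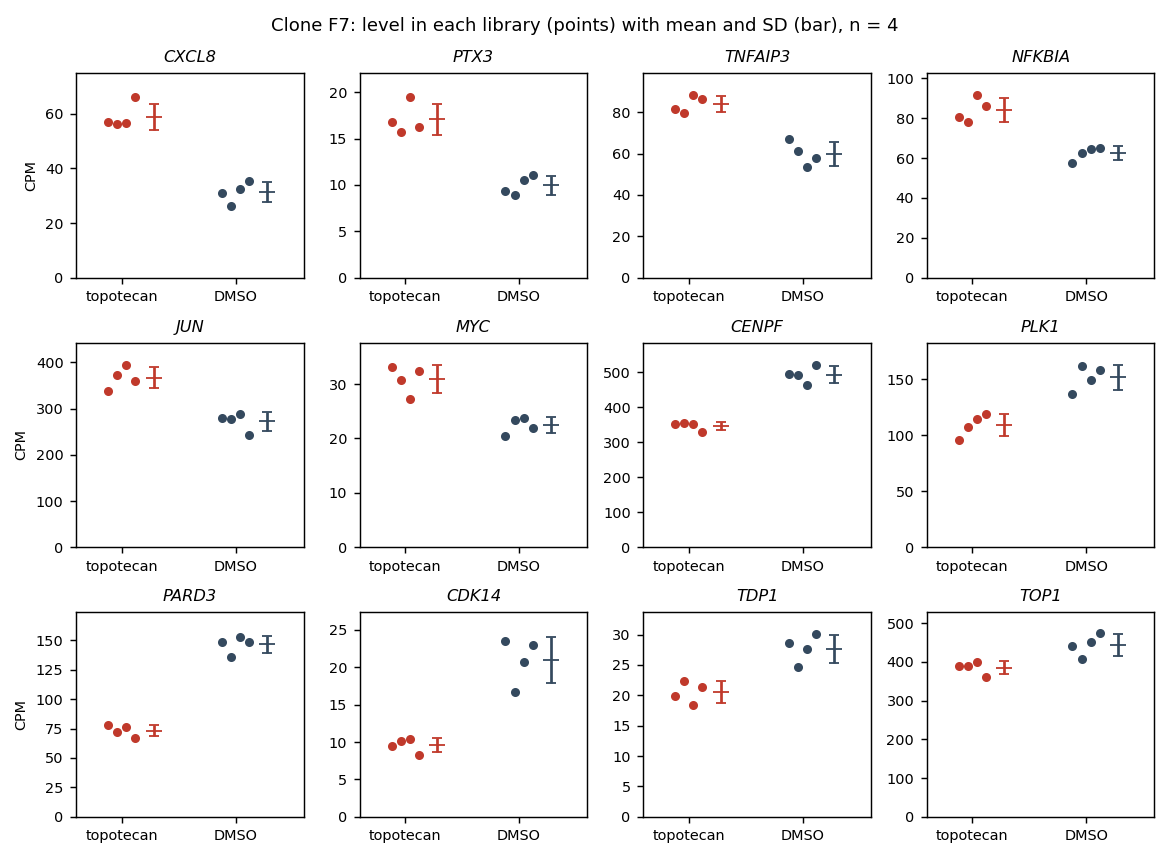
Levels of 12 genes in clone F7, in CPM on y axes that start at 0. Each point is 1 library, 4 with topotecan on the left and 4 with DMSO on the right of each panel, and the bars give the mean and SD. The 2 groups do not overlap in any of the 12 panels: CXCL8, PTX3, TNFAIP3, NFKBIA, JUN and MYC lie higher with topotecan, and CENPF, PLK1, PARD3, CDK14, TDP1 and TOP1 lie lower.

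Some NF-kB and immediate early genes had a smaller response in F7 than in the sister clones. The difference between the F7 response and the mean of the C6 and G6 responses was tested in 1 fit to 24 libraries. In that fit 352 genes passed in F7 (1.98%; 1.81% lower and 0.174% higher), 916 in C6 (5.16%; 3.26% lower and 1.9% higher) and 1763 in G6 (9.92%; 7.24% lower and 2.68% higher). The fit to the 8 F7 libraries alone had called 1698 in F7, and here the estimate of spread was shared by all 24 libraries. Whether the clones differ in the number of genes that respond was not tested. For the difference, 24 of 17769 genes passed (0.135%, edgeR), 18 of them with a lower log2 response in F7 (0.101%) and 6 with a higher one (0.0338%). The lower ones included 8 of 29 NF-kB effectors, 4 of 25 NF-kB subunits and inhibitors and 5 of 34 immediate early genes. CXCL8 changed by 0.92 ± 0.17 in F7, 3.44 ± 0.20 in C6 and 3.34 ± 0.18 in G6 on the log2 scale, a difference of -2.47 ± 0.21 (SE, adjusted p = 1.25e-08, edgeR). TNFAIP3 changed by 0.48 ± 0.10 in F7, 2.58 ± 0.12 in C6 and 2.35 ± 0.11 in G6 (difference -1.98 ± 0.13, adjusted p = 6.14e-11, edgeR). ATF3 (difference -0.99), IER3 (-1.16), NFKBIA (-1.04) and PPP1R15A (-0.68) rose in F7, with a smaller log2 change than in both other clones. SDC4, the gene of the cell-surface proteoglycan syndecan 4, was at 228, 216, 215 and 211 CPM with topotecan, against 203, 230.2, 222 and 202 CPM with DMSO in F7, which overlap. It changed by 0.02 ± 0.07 in F7, 0.66 ± 0.07 in C6 and 0.77 ± 0.07 in G6 (difference -0.70 ± 0.09, adjusted p = 2.62e-05, edgeR).

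For most of the 18 genes with a lower response, F7 started from a higher DMSO level. In the scaling of the 24-library fit, CXCL8 averaged 56.8 ± 4.64 CPM with topotecan and 30.2 ± 3.74 CPM with DMSO in F7 (SD, n = 4 each). It averaged 99.8 ± 25.7 CPM with topotecan and 9.28 ± 1.02 CPM with DMSO in C6, and 192 ± 34.9 CPM with topotecan and 19.0 ± 5.94 CPM with DMSO in G6. TNFAIP3 averaged 80.8 ± 4.06 CPM with topotecan and 57.6 ± 5.44 CPM with DMSO in F7, 97.02 ± 13.4 CPM with topotecan and 16.1 ± 2.22 CPM with DMSO in C6, and 142 ± 10.8 CPM with topotecan and 27.7 ± 2.97 CPM with DMSO in G6. BIRC3 averaged 39.9 ± 3.67 CPM with topotecan and 38.7 ± 1.02 CPM with DMSO in F7, above its topotecan level in C6 (19.4 ± 5.86 CPM) and G6 (26.3 ± 3.72 CPM). Of the 18 genes with a lower log2 response in F7, 15 had a mean DMSO level in F7 above that of both other clones, and 7 had a mean topotecan level below that of both. How often F7 ranked so over all genes was not counted. The difference in CPM between topotecan and DMSO was smaller in F7 than in both other clones for all 18. Each clone's DMSO libraries enter both the level and the response, and how much of the smaller response goes with the higher start was not tested.

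The 6 genes with a higher (less negative) log2 response in F7 were AURKA, KIF20A, PLK1, CENPA and CCNB1, all on the list of G2 and mitosis genes, and KPNA2, which encodes a nuclear import receptor. Their log2 changes were below 0 in all 3 clones and nearest to 0 in F7, and their DMSO means were higher in F7 than in both other clones. AURKA changed by -0.39 ± 0.08 in F7, -1.28 ± 0.08 in C6 and -0.88 ± 0.08 in G6 (difference 0.69 ± 0.10, adjusted p = 0.000225, edgeR). Of the 24 genes, 17 passed in each of 24 refits that left out 1 library. JUNB, DUSP1, CCNB1, CENPA, PLK1, GADD45A and KPNA2 passed in 5, 6, 9, 12, 12, 20 and 23 of the 24. In the C6 and G6 groups 6 of 16 libraries had fewer than 20000 genes detected at 4.5 M counts, and none of the 8 F7 libraries did. Without those 6 libraries, a choice made after seeing the data, 32 genes passed, 21 of them among the 24, and the count with a higher response was 11.

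**Figure D3:**
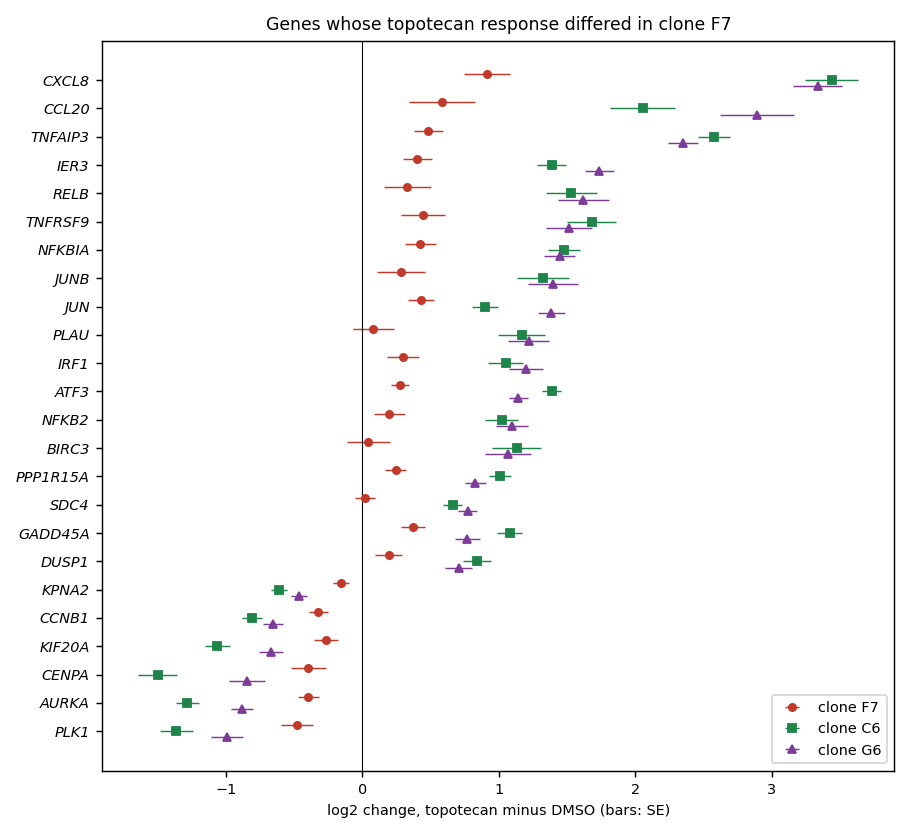
Log2 changes, topotecan minus DMSO, of the 24 genes whose response in clone F7 differed from the mean response of clones C6 and G6. Points are the estimates of the 24-library fit and bars their SE, with F7 as circles, C6 as squares and G6 as triangles. In the upper 18 genes F7 lies to the left of both other clones, and in the lower 6 genes it lies between them and 0.

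Genes of G2 and mitosis fell as a group. Of 34 tested, 24 fell and 0 rose, against 6.9% of all genes that fell, and all 34 had a log2 change below 0 with a median of -0.31. Their summed level was 6720 to 6820 CPM with topotecan and 8030 to 8490 CPM with DMSO. CENPF (chromosome 1, 214603195 to 214664588), a kinetochore protein gene, was at 351, 355, 352 and 329.9 CPM with topotecan, against 496, 491, 464 and 521 CPM with DMSO (log2 -0.51 ± 0.05, adjusted p = 2.27e-10, edgeR). PLK1, the gene of a kinase that drives mitotic entry, was at 95.9, 108, 114 and 119 CPM with topotecan, against 137, 162, 149.5 and 158 CPM with DMSO (log2 -0.47 ± 0.06, adjusted p = 3.84e-07, edgeR). In both the groups lay apart. TOP2A (log2 -0.38), which encodes the topoisomerase that untangles sister chromatids, the kinetochore motor gene CENPE (-0.53) and the checkpoint kinase gene BUB1 (-0.42) fell too. CDK1 (-0.10), CCNA2 (-0.13) and CCNB2 (-0.08) did not pass. No member of the list, called or not, spans 100 kb or more, and the longest is CENPE (92.6 kb). The median span of the 34 was 29.7 kb, and 11 of the 24 that fell span under 30 kb. Of protein-coding genes of 10 to 30 kb 0.776% fell, and of those of 30 to 100 kb 2.76% fell. In 21 of the 34 every topotecan library lay below every DMSO library, as in 8.35% of all genes tested (and 5.61% lay fully above). Leaving out 1 library in turn gave 21 to 26 members that fell.

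Promoters of the list often hold CCAAT, bound by NF-Y, and TTTGAA, the cell cycle homology region. CENPF and CDC20 are printed with matches in capitals (GRCh38.p14, RefSeq, 5′ to 3′, both strands searched). The CENPF window holds CCAAT and no TTTGAA. CDC20 was chosen after its values were seen, as an example that holds both. The stretches searched for BUB1 (199 bases, CCAAT only) and CENPE (184 bases, neither motif) are not printed. They too end before the first base in GENCODE 29, so bases nearest the RefSeq start were not searched in them. The windows are chr1:214602945-214603194 and chr1:43358731-43358954, both on the plus strand.
CENPF: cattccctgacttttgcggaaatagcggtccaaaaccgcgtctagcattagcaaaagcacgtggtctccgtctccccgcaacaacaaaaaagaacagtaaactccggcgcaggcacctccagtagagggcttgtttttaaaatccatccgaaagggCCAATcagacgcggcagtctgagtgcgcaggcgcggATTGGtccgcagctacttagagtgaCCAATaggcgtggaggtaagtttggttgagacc
CDC20: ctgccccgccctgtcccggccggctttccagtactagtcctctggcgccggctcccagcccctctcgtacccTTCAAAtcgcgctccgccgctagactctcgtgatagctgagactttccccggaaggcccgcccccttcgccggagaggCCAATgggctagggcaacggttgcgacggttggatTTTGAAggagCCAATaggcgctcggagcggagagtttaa
In windows of 300 bases, CCAAT stood in 23 of 29 list genes with a window (79.3%), against 36.5% of all 12034, and TTTGAA in 18 of 29 (62.1%), against 9.77% of all. CDC20, which encodes the activator of the anaphase-promoting complex, was at 152, 155, 166 and 168 CPM with topotecan, against 193, 198, 201 and 190.5 CPM with DMSO (log2 -0.29 ± 0.06, adjusted p = 0.0002, edgeR).

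Genes of G1/S and DNA replication went the other way. Of 40 tested, 20 rose and 1 fell, against 3.19% of all genes that rose and 6.9% that fell, with a median log2 change of 0.18 and a summed level of 6420 to 6570 CPM with topotecan and 5710 to 5890 CPM with DMSO. Their median span was 25.1 kb, and of protein-coding genes of 10 to 30 kb 5.87% rose and 0.776% fell, with a median of 0.07. PCNA, the gene of the sliding clamp of DNA polymerase, was at 499, 467, 496 and 469 CPM with topotecan, against 391, 346, 381 and 387 CPM with DMSO (log2 0.36 ± 0.05, adjusted p = 1.08e-06, edgeR). CDC6, which loads the replicative helicase, was at 196, 186, 201 and 186 CPM with topotecan, against 152, 145, 144 and 147 CPM with DMSO (log2 0.38 ± 0.06, adjusted p = 1.17e-06, edgeR). The helicase subunit genes MCM4 (log2 0.34) and MCM5 (0.38) rose with them. The 1 member that fell was POLA1, the catalytic subunit gene of the primase-polymerase, which spans 303 kb: it was at 232, 230.5, 228 and 208 CPM with topotecan, against 316, 289, 285 and 303 CPM with DMSO (log2 -0.41 ± 0.05, adjusted p = 1.92e-07, edgeR). The cyclin gene CCNE1 (0.17) did not pass. Without DMSO replicate 3, 15 of the 40 rose. Cell numbers and cell cycle phases were not measured, and in bulk RNA fewer cells of a phase and less RNA per cell cannot be told apart.

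Some targets of p53 rose, by small steps. Of 30 tested, 6 rose and 0 fell, against 3.19% and 6.9% of all genes, and 27 of 30 had a log2 change above 0, with a median log2 change of 0.12. Their median span was 11.5 kb, and of protein-coding genes of 10 to 30 kb 5.87% rose and 0.776% fell, with a median of 0.07. GADD45A, a growth arrest gene, was at 169, 162, 197 and 172 CPM with topotecan, against 150.4, 138, 130.2 and 120.8 CPM with DMSO (log2 0.37 ± 0.06, adjusted p = 3.42e-05, edgeR). TIGAR (log2 0.35), the oxidoreductase gene TP53I3 (0.64) and the kinase genes PLK2 (0.22) and PLK3 (0.33) also rose. CDKN1A, the p21 inhibitor gene, had a log2 change of 0.08 and MDM2, the p53 ubiquitin ligase gene, -0.15, neither past the threshold. PLK2 was lost without DMSO replicate 3 or topotecan replicate 3 (adjusted p up to 0.0749, edgeR), and PLK3 without topotecan replicate 2 (0.0871). Without DMSO replicate 3, 4 members rose.

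Genes that repair topoisomerase lesions and breaks showed no common direction. Of 30 genes that repair topoisomerase lesions or single-strand breaks, 1 rose (the flap endonuclease gene FEN1, log2 0.17) and 3 fell (TOP2A, TDP1 and TOP1), shares of 3.33% and 10.0% that lie near the 3.19% and 6.9% of all genes. FEN1 passed in 2 of 8 refits that left out 1 library (adjusted p up to 0.113, edgeR). Of 27 genes of homologous recombination and the Fanconi pathway, only EXO1 rose (3.7%, log2 0.33 ± 0.06, adjusted p = 0.000267, edgeR) and 0 fell. Of 26 checkpoint and break signalling genes 3 rose (11.5%), among them TIPIN (log2 0.28), which stabilises stalled replication forks. Without topotecan replicate 2, 1 of the 26 rose. The 3 that fell (11.5%) were PRKDC (log2 -0.22), XRCC4 (-0.47) and TP53BP1 (-0.25), which act in end joining and span 187, 276 and 108 kb. TIPIN was lost without DMSO replicate 2 or 3 or topotecan replicate 2 or 3 (adjusted p up to 0.0897, edgeR), and XRCC4 without topotecan replicate 4 (0.0568). Of 26 apoptosis regulators, 2 rose (7.69%), among them the caspase gene CASP2 (log2 0.30), and 0 fell.

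Most genes that fell were long. Of the 1122 protein-coding genes that fell, 942 span at least 100 kb (84.0%), as do 7 of the 504 that rose (1.39%) and 20.4% of the 13953 protein-coding genes tested. Among 1119 genes over 200 kb 555 fell (49.6%) and 1 rose, with a median log2 change of -0.34. Among 2645 genes under 10 kb 23 fell and 178 rose, with a median of 0.06. The median was -0.14 for 100 to 200 kb, -0.31 for 200 to 500 kb, -0.54 for 500 to 1000 kb and -0.42 for the 32 genes over 1000 kb. The 1 gene over 200 kb that rose, named because it is alone, was C2orf88 (324 kb, log2 0.60, adjusted p = 0.0257, edgeR). Across the 13953 genes, which are not independent replicates, the rank correlation of the log2 change with span was -0.43, and -0.28 once length and number of exons, GC content and level were held fixed. It was -0.11 for DMSO against untreated.

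The 6 genes over 200 kb with the smallest p fell by close to 2-fold. EIF4G3 (chromosome 1, 20806292 to 21176888, 371 kb), a translation initiation factor gene, was at 147, 147, 153 and 155 CPM with topotecan, against 269, 267, 271 and 273 CPM with DMSO (log2 -0.84 ± 0.05, adjusted p = 1.46e-16, edgeR). PARD3 (chromosome 10, 34109560 to 34815325, 706 kb), a cell polarity gene, was at 77.7, 72.2, 76.0 and 67.1 CPM with topotecan, against 149, 136, 153 and 148 CPM with DMSO (log2 -1.003 ± 0.06, adjusted p = 1.46e-16, edgeR). TRIO (388 kb), a guanine exchange factor gene, was at 150.1, 169, 142 and 153 CPM with topotecan, against 270.0, 296, 279.9 and 278 CPM with DMSO (log2 -0.87 ± 0.06, adjusted p = 2.97e-16, edgeR). The 3 genes' topotecan libraries lay far below their DMSO libraries. MED13L (324 kb, log2 -0.84), a Mediator kinase module gene, PSD3 (557 kb, -0.93), an exchange factor gene for ARF6, and ERC1 (505 kb, -0.88), an active zone scaffold gene, were the other 3. All 6 kept their call in each of 8 refits that left out 1 library.

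The loss per library was similar in all 4 topotecan libraries. The mean log2 CPM of coding genes over 200 kb minus that of genes under 10 kb was -0.39, -0.45, -0.47 and -0.44 with topotecan, against -0.04, -0.10, -0.05 and 0.08 with DMSO. Untreated libraries gave -0.06, -0.12, 0.06 and 0.29, so that the topotecan libraries lay below all 8 others. In F7 libraries given topotecan with OL9-119 the value was -0.38 to -0.26. No single gene over 200 kb was called different between F7 and the other clones. By the same long minus short measure, topotecan minus DMSO was -0.41 in F7, -0.474 in C6 and -0.705 in G6. The SDs with topotecan and with DMSO were 0.0373 and 0.0745 in F7, 0.27 and 0.239 in C6, and 0.123 and 0.25 in G6. Whether the clones differ by this measure was not tested. The median log2 change of genes over 200 kb was -0.34 in F7, -0.34 in C6 and -0.47 in G6 in the 24-library fit, and 0 of 1147 such genes differed between F7 and the other clones (edgeR), against 0.135% of all genes, a count too near that share to set long genes apart. In a simulation of that test, a planted log2 difference of 0.5 was recovered for 9.28% of genes and of 1 for 63.3%, so smaller differences could have been missed.

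**Figure D4:**
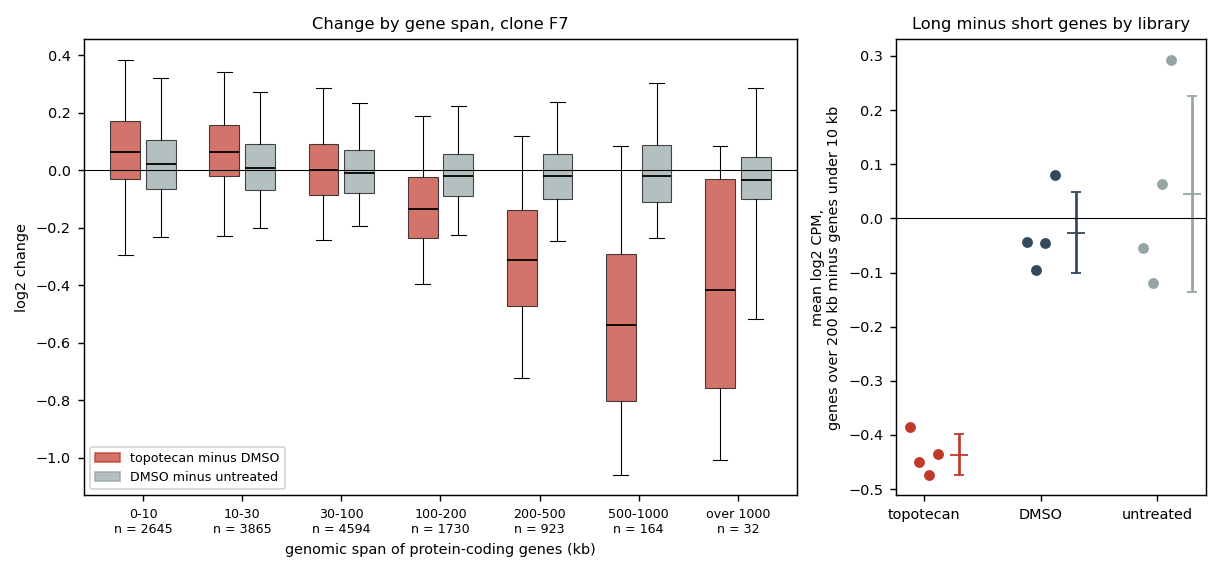
Left, log2 change of protein-coding genes in clone F7 by genomic span in kb, for topotecan minus DMSO (red) and DMSO minus untreated (grey). Boxes give the median and quartiles and whiskers the 5th and 95th percentiles; n is the number of genes. Right, mean log2 CPM of genes over 200 kb minus that of genes under 10 kb in each library, with mean and SD (n = 4). The topotecan boxes drop below 0 beyond 100 kb while the grey boxes stay near 0, and the 4 topotecan libraries lie between -0.47 and -0.39.

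The 12 lowest changes among called genes whose log2 CPM averaged 2 or more were all in genes over 500 kb. TENM1 (588 kb), a teneurin adhesion gene, was at 2.29, 1.72, 2.51 and 3.29 CPM with topotecan, against 6.06, 6.02, 5.62 and 7.48 CPM with DMSO (log2 -1.34 ± 0.21, adjusted p = 8.26e-06, edgeR). TTC28 (702 kb) was at 14.8, 17.1, 11.1 and 13.9 CPM with topotecan, against 27.7, 33.5, 36.1 and 33.7 CPM with DMSO (log2 -1.17 ± 0.11, adjusted p = 1.6e-11, edgeR). CDK14 (744 kb), a cyclin Y partner, was at 9.51, 10.2, 10.3 and 8.31 CPM with topotecan, against 23.6, 16.7, 20.7 and 23.0 CPM with DMSO (log2 -1.13 ± 0.12, adjusted p = 2.57e-09, edgeR). The groups of these 3 genes were fully apart. PARD3B (log2 -1.18), the synapse genes NLGN1 (-1.17) and SYT1 (-1.01), the transcription factor genes FOXP2 (-1.12), SOX6 (-1.09) and GLIS3 (-1.06), LPP (-1.05), SBF2 (-1.05) and PARD3 complete the set.

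The 12 highest changes by the same rule held CXCL8, PTX3, TP53I3 and 9 other genes. TUBA5P, a tubulin pseudogene that may share reads with its coding relatives, was at 6.16, 5.85, 7.24 and 7.54 CPM with topotecan, against 4.29, 3.73, 3.17 and 3.27 CPM with DMSO (log2 0.86 ± 0.19, adjusted p = 0.000978, edgeR). The kinase-dead receptor gene EPHB6 (log2 0.64), ADPRM (0.62), N4BP2L1 (0.62), ZNF552 (0.62) and the non-coding FAM88B (0.71), GOLPH3-DT (0.65), WASIR2 (0.64) and GOLGA4-AS1 (0.68) made up the rest. The libraries were made with a directional kit, per the labels, but the strand setting of the counting is not known here, and reads of GOLGA4-AS1 and of the gene opposite cannot be told apart. FAM88B (adjusted p = 0.0917) and WASIR2 (0.0529) were lost without topotecan replicate 2, EPHB6 (0.0517) without topotecan replicate 4, ZNF552 (0.0503) without topotecan replicate 1, and GOLPH3-DT (0.118) without DMSO replicate 2 (edgeR). N4BP2L1 was lost without DMSO replicate 1 or topotecan replicate 2 (up to 0.0648), and GOLGA4-AS1 without DMSO replicate 2 or 4 or topotecan replicate 3 or 4 (up to 0.161).

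Outside the mitotic list, the members of the gene lists that fell were also mostly long. Of 712 listed genes tested there, 71 span at least 100 kb, and of the 35 that fell, 24 do. In the Hippo pathway the transcription factor gene TEAD1 (270 kb) was at 112, 111, 100.2 and 113 CPM with topotecan, against 158, 163, 154 and 173 CPM with DMSO (log2 -0.56 ± 0.06, adjusted p = 8.61e-10, edgeR). Its coactivator gene YAP1 (122.96 kb, log2 -0.36), CRIM1 (195 kb, -0.40) and PTPN14 (204 kb, -0.37) fell, and AMOTL2 (19.6 kb, 0.24) rose. In all 5 of 18 genes of this list fell (27.8%) and 3 rose (16.7%), against 6.9% and 3.19% of all genes. Without DMSO replicate 3 none of the 18 rose, AMOTL2 included (adjusted p up to 0.141 over the refits, edgeR). The splicing kinase gene SRPK2 (289 kb, log2 -0.50), the fatty acid synthesis gene ACACA (322 kb, -0.44), the stress sensor gene ATF6 (198 kb, -0.39) and the drug exporter gene ABCC1 (193 kb, -0.34) fell in lists where most members did not pass. ABCC1 was 1 of 3 of 24 NRF2 and glutathione genes that fell (12.5%), a count of 1 without DMSO replicate 4, and ACACA the 1 of 24 sterol and lipid synthesis genes (4.17%).

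Among regulators of RNA polymerase II elongation 2 of 27 rose (7.41%) and 4 fell (14.8%), against 3.19% and 6.9% of all genes. Without DMSO replicate 3, 1 rose. HEXIM1, whose product holds the elongation kinase P-TEFb inactive, was at 271, 261, 270.1 and 285 CPM with topotecan, against 202, 204, 199.8 and 193 CPM with DMSO (log2 0.45 ± 0.05, adjusted p = 1.89e-08, edgeR). MLLT3 (281 kb), a super elongation complex gene, was at 12.9, 9.63, 11.1 and 10.6 CPM with topotecan, against 19.9, 17.5, 19.5 and 22.5 CPM with DMSO (log2 -0.84 ± 0.12, adjusted p = 9.27e-07, edgeR). In both genes the groups did not overlap, and the elongation kinase gene CDK13 (150 kb, log2 -0.32) fell less than MLLT3. Of 26 SR protein, CLK kinase and hnRNP genes 4 rose (15.4%), among them SRSF6 (log2 0.31), SRSF2 (0.18) and SRSF7 (0.18), and 2 fell (7.69%), SRPK2 and HNRNPA1 (log2 -0.14). HNRNPA1 passed in 2 of 8 refits that left out 1 library (adjusted p up to 0.198, edgeR), and 1 to 3 members fell in these refits. Without DMSO replicate 3, 1 of the 26 rose. SRSF2 and SRSF7 were lost without DMSO replicate 3 or 4 or topotecan replicate 3 (adjusted p up to 0.139, edgeR).

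Of 13 nuclear long non-coding RNAs tested 4 fell and 0 rose, against 6.9% of all genes that fell and 3.19% that rose. NEAT1 (chromosome 11, 65422774 to 65445540), the scaffold of paraspeckles, was at 590.1, 629, 612 and 526 CPM with topotecan, against 948, 887, 731 and 747 CPM with DMSO (log2 -0.49 ± 0.07, adjusted p = 6.04e-05, edgeR). PVT1 (307 kb), which lies beside MYC, was at 19.4, 18.6, 17.1 and 17.3 CPM with topotecan, against 26.8, 26.7, 27.9 and 28.1 CPM with DMSO (log2 -0.59 ± 0.10, adjusted p = 1.23e-05, edgeR). Its direction was opposite to that of MYC, which is short and rose. Of 16 small nucleolar RNA host genes 4 rose, with a median log2 change of 0.10, among them SNHG5 (log2 0.21) and SNHG1 (0.17). Without topotecan replicate 3, 1 of the 16 rose. SNHG5 was lost without DMSO replicate 2 or topotecan replicate 4 (adjusted p up to 0.102, edgeR), and SNHG1 passed in 2 of 8 refits.

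Other stress programs held 2 to 5 called genes each. Of 33 ATF4 targets 5 rose (15.2%) and 0 fell, against 3.19% and 6.9% of all genes, and 28 had a log2 change above 0. The list's median span was 28.6 kb, and of protein-coding genes of 10 to 30 kb 5.87% rose and 0.776% fell, with a median of 0.07. Those that rose included MTHFD2 (log2 0.30), a mitochondrial folate enzyme gene, and STC2 (0.28), with a list median of 0.13. They also included PPP1R15A, counted above with the immediate early genes, and GARS1, which passed in 3 of 8 refits that left out 1 library. Of 32 interferon response genes 3 rose (9.38%): HLA-E, IFIT5 and IRF1. IRF1 is also on the list of NF-kB effectors. The count was 2 without topotecan replicate 4 and 5 without topotecan replicate 1. This list's median span was 13.2 kb, within the same range of 10 to 30 kb. Of 24 genes of the unfolded protein response 1 rose (XBP1, 4.17%) and 1 fell (ATF6, 4.17%). Of 22 heat shock genes 2 fell (9.09%): HSPA4 (log2 -0.17) and HSPA1B, which was at 680.2, 874, 645 and 694 CPM with topotecan, against 1134, 1022, 1424 and 1025 CPM with DMSO (log2 -0.67 ± 0.15, adjusted p = 0.0378, edgeR). HSPA1B is nearly identical to HSPA1A and may share its reads. XBP1, HSPA1B and HSPA4 passed in 3, 2 and 3 of 8 refits that left out 1 library (adjusted p up to 0.104, edgeR).

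Metabolic and housekeeping lists held 0 to 5 called genes each. Of 28 glycolysis and hypoxia genes 3 fell (10.7%, against 6.9% of all genes): NDRG1 (log2 -0.52 ± 0.06, adjusted p = 6.41e-09, edgeR), a hypoxia-induced gene, the glucose transporter gene SLC2A3 (-0.25) and the hexokinase gene HK1 (-0.20). SLC2A3 was lost without DMSO replicate 3 (adjusted p = 0.0587, edgeR), when 2 members fell and 2 rose. Of 30 cytosolic ribosomal protein genes 1 rose (3.33%, against 3.19% of all genes), RPLP0 (log2 0.14), which passed in 2 of 8 refits that left out 1 library. Of 30 ribosome biogenesis genes 4 rose (13.3%), among them NOP56 (0.20) and NOLC1 (0.18), and 1 fell (3.33%), and without DMSO replicate 3 the count that rose was 2. None of 29 nuclear-encoded respiratory chain genes, 13 mitochondrially encoded mRNAs, 13 replication-dependent histone genes, 23 extracellular matrix genes or 8 aryl hydrocarbon receptor targets passed, against 10.1% of all genes. For the mitochondrial mRNAs the median log2 change was -0.09, and 3 of the 13 fell when topotecan replicate 3 was left out. Of 16 HEK293 marker genes tested 1 rose (6.25%) and 2 fell (12.5%), BASP1 (log2 -0.31) and CDH2 (-0.37), which span 211 and 226 kb.

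**Figure D5:**
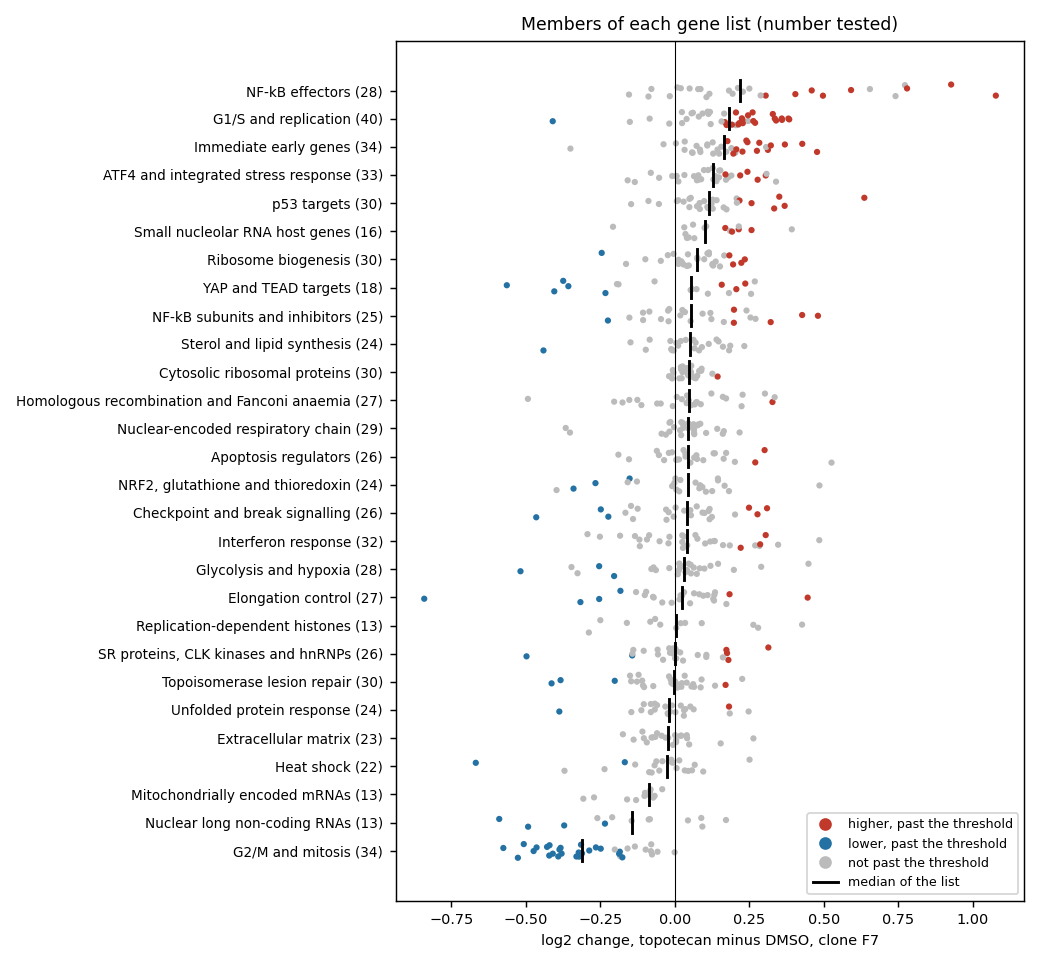
Log2 change, topotecan minus DMSO in clone F7, of every tested member of 28 gene lists, with the number tested in parentheses. Red points passed the threshold and rose, blue points passed and fell, grey points did not pass, and the black bar is the list's median. Lists run from the highest median (NF-kB effectors, 0.22) at the top to the lowest (G2/M and mitosis, -0.31) at the bottom.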

How the data were processed

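RNA was Trizol-extracted, poly(A)-selected and made into directional MGI libraries, per the labels' protocols. The counter, its annotation and its strand setting were not stated in the sources used here. Whole-number read counts per gene were deposited by the authors in 1 table of 60 libraries; FastQC 0.11.9, STAR 2.7.8, Picard 2.26.6 and hg38 are named in the submitters' processing notes. The table was matched to GENCODE 29 for symbols and spans, and promoter windows came from RefSeq (GRCh38.p14). Genes with enough counts (edgeR filterByExpr) were tested in R 4.3.3 with edgeR 4.0.16 (TMM scaling, robust quasi-likelihood F test, Benjamini-Hochberg adjusted p under 0.05), on the 8 F7 libraries with topotecan or DMSO, on 8 with DMSO or none, and on 24 for the difference between clones. Log2 CPM used a prior count of 2. The SE is the log2 change divided by the square root of F. Simulated data with a planted log2 change of 0.5 gave 69.4% recovery, and of 1 gave 86.9%, for the F7 comparison over 16569 genes. Totals of 6.83 to 15.4 M counts limit precision for rare transcripts: 1.43% of genes with a mean log2 CPM under 2 were called, and 18.0% at 6 or more.

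Genes were named by rule: TDP1 and TOP1; the 12 highest and 12 lowest changes among called genes with a symbol and a mean log2 CPM of at least 2; up to 5 called members of each list, by p; the 8 smallest p for the clone difference; and the 6 smallest p over 200 kb. Uncalled members, and genes said to be added, were named after their values were seen. The comparison, the members and the lists were chosen with earlier results of these data known. Alternatives were other scalings, filters, tests (DESeq2 1.42.0) and sets of libraries, an untreated reference, a replicate block and leaving out each library. Some genes that the rule names are not reported here.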

Additional observations from a re-analysis of the deposited data

Results flagged for a closer look

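The response to topotecan in F7 differed from the mean response of C6 and G6 in 24 genes, by the test of that difference (edgeR, 24 libraries). The difference in log2 change, F7 minus the other clones, was -2.47 for CXCL8, -1.98 for TNFAIP3, -1.89 for CCL20, -1.25 for RELB, -1.16 for IER3, -1.15 for TNFRSF9, -1.11 for PLAU, -1.08 for JUNB, -1.05 for BIRC3 and -1.04 for NFKBIA. It was -0.988 for ATF3, -0.861 for NFKB2, -0.824 for IRF1, -0.716 for JUN, -0.697 for SDC4, -0.675 for PPP1R15A, -0.579 for DUSP1 and -0.551 for GADD45A. It was 0.776 for CENPA, 0.7 for PLK1, 0.687 for AURKA, 0.6 for KIF20A, 0.41 for CCNB1 and 0.381 for KPNA2.

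In 12 of 256 groups of 4 libraries (4.69%) 1 library stood far from the other 3, by Dixon's test at 95%; chance gives about 1 in 20. With topotecan these were replicate 4 for CXCL8 (66.1 CPM), PARD3B (7.99 CPM), CENPF (330 CPM) and POLA1 (208 CPM), replicate 2 for NLGN1 (4.81 CPM) and PLK3 (28.7 CPM), and replicate 3 for PTPN14 (27.1 CPM) and BASP1 (294 CPM). With DMSO they were replicate 4 for SYT1 (10.4 CPM), replicate 1 for RELA (126.98 CPM), replicate 2 for HSPA4 (413 CPM) and replicate 3 for SLC2A3 (406 CPM).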

How the results depend on the processing

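No result changed direction under the alternatives run. For topotecan against DMSO, the fit to all 60 libraries gave 366 called genes (44 higher, 322 lower, 246 lower over 200 kb), and the untreated reference gave 254 higher. Leaving out 1 library gave 1248 to 1733 called genes, 298 to 548 higher, 936 to 1207 lower and 484 to 527 lower over 200 kb. The rank correlation with span was -0.2623 without a filter, -0.5084 with the stricter filter and -0.4616 to -0.3667 with 1 library left out. For the clone difference, C6 alone gave 15 genes (10 lower), G6 alone gave 3 higher, DESeq2 gave 45 (12 higher, 33 lower) and no filter 48 (18 higher, 30 lower). Leaving out 1 library gave 18 to 37 (2 to 9 higher, 15 to 28 lower). Without the 6 low-detection libraries, chosen after seeing the data, 11 were higher. For DMSO against untreated, DESeq2 gave 3 genes (3 lower), no filter 4 (4 lower), the replicate block 6 (2 higher, 4 lower), and leaving out 1 library 0 to 4 (0 to 4 lower). The causes were not tested. The replicate block gave 1948 genes for topotecan, 1690 of them among the 1698, and 29 for the clone difference. Same-numbered libraries correlated at 0.22, 0.28, -0.069 and -0.14, and not every library correlated best with its own number. These few weak values cannot decide whether the numbers pair the samples. Same-numbered F7 libraries share a name prefix, L01 for replicate 1, L02 for 2 and L03 for 3 and 4. The labels do not say what the prefix means. Of 117 named genes, 76 lost their call in the 60-library fit and 43 with the untreated reference; 39 lost it in at least 1 refit without a library.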

Other observations

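Processed pseudogenes had a median log2 change of -0.33 over 502 tested, against 0.01 over 13953 protein-coding genes; 14 fell and 1 rose (edgeR), a smaller share that fell than the 6.9% of all genes. They made up 8 of the 36 genes that fell by at least 2-fold. Reads of a processed pseudogene and of its parent gene may be shared, so single members are uncertain.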
